A study of Mus musculus with 2 samples.

Results

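Mir126a, Mir126b, Mir221 and Mir222 are 4 microRNA (miRNA) genes of 2 loci known from blood vessels. They were taken by gene name from the 2202 miRNA genes of the count tables and described in the strand columns and in the ratios between them. The data came from small RNA libraries of heart, made from total RNA of adult males aged 18 to 20 months. The mice were B6CASTF1/J hybrids of the strains C57BL/6J and CAST/EiJ from The Jackson Laboratory, with no other genotype or treatment given. The labels name 2 biological replicates of 1 group, which carry separate biosamples but 1 donor record. The spread between these libraries may therefore be technical, and any p-value here compares 2 libraries, not animals or conditions.

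MiRNAs are cut from hairpin precursors, and the bases 2 to 8 of the mature strand, the seed, pair with target messages. MiR-126 is made from an intron of Egfl7, a secreted factor of endothelium, and is known to sustain growth factor signalling in endothelial cells by repressing Spred1 and Pik3r2. MiR-221 and miR-222 come from neighbouring hairpins on the X chromosome and are known to repress the receptor Kit and the cell cycle inhibitor Cdkn1b. They are made in endothelium and smooth muscle, and also in fibroblasts, blood cells and epithelia, so they mark no single cell type.

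The mature sequences below are shown because they carry the relations within the set, namely a seed shared by miR-221 and miR-222 and a pair of miR-126 genes read from opposite strands. They come from RefSeq (GRCm38.p6), run 5′ to 3′, and have the seed in capitals. All 4 genes were matched there, with 6 mature sequences, of which 5 are printed. MiR-126a-5p and miR-222-5p had no entry.
miR-126a-3p: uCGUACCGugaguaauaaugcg
miR-126b-5p: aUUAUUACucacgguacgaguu
miR-126b-3p: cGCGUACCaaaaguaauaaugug
miR-221-3p: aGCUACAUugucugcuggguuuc
miR-222-3p: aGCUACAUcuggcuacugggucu
MiR-221-3p and miR-222-3p were identical over their first 8 bases and at 11 of 23 positions in all, compared without gaps. Among 1738 mature mouse sequences in that table, the seed GCUACAU was found in 1 further miRNA, miR-1928, whose gene had 0 reads in these libraries. The seed CGUACCG of miR-126a-3p was found in no other mature sequence, and neither were the seeds of both miR-126b strands. MiR-126b-5p held a stretch of 19 bases complementary to miR-126a-3p, so these strands come from overlapping base pairs of the genome.

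The hairpins of the miR-126 genes are shown next because their overlap decides in which column the reads were counted. Capitals mark the mature strands that RefSeq lists.
Mir126a: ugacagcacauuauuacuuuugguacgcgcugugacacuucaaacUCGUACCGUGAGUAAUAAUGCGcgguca
Mir126b: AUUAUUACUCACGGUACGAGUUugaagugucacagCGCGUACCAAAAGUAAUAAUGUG
Mir126a (ENSMUSG00000065540.1) spans 73 bases of the plus strand at chr2:26591357-26591429 (GRCm38, mm10). Mir126b (ENSMUSG00000105799.1) spans 58 bases of the minus strand at chr2:26591363-26591420. The whole Mir126b hairpin is the reverse complement of Mir126a, which extends beyond it by 6 bases on its 5′ side and 9 bases on its 3′ side. The predicted folding energy was -31.2 kcal/mol for Mir126a and -19.3 kcal/mol for Mir126b, which is shorter.

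Egfl7 (ENSMUSG00000026921.18) runs along the plus strand at chr2:26580014-26593120, so Mir126a is read in the direction of its host and Mir126b against it. Mir126a begins 11343 bases after the start of Egfl7. It lies in an intron of 8 of the 19 annotated Egfl7 transcripts, 7 of them protein-coding. In 6 of these transcripts the intron is that of 600 bases at chr2:26591064-26591663, and in the other two it is longer. The hairpin lies wholly in an exon of 1 transcript, annotated as a retained intron, and outside the other 10 transcripts. The gene model Gm20532 overlaps it on the same strand as well. The count tables hold miRNA genes alone, so the message of Egfl7 itself was not measured here.

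**Figure D1:**
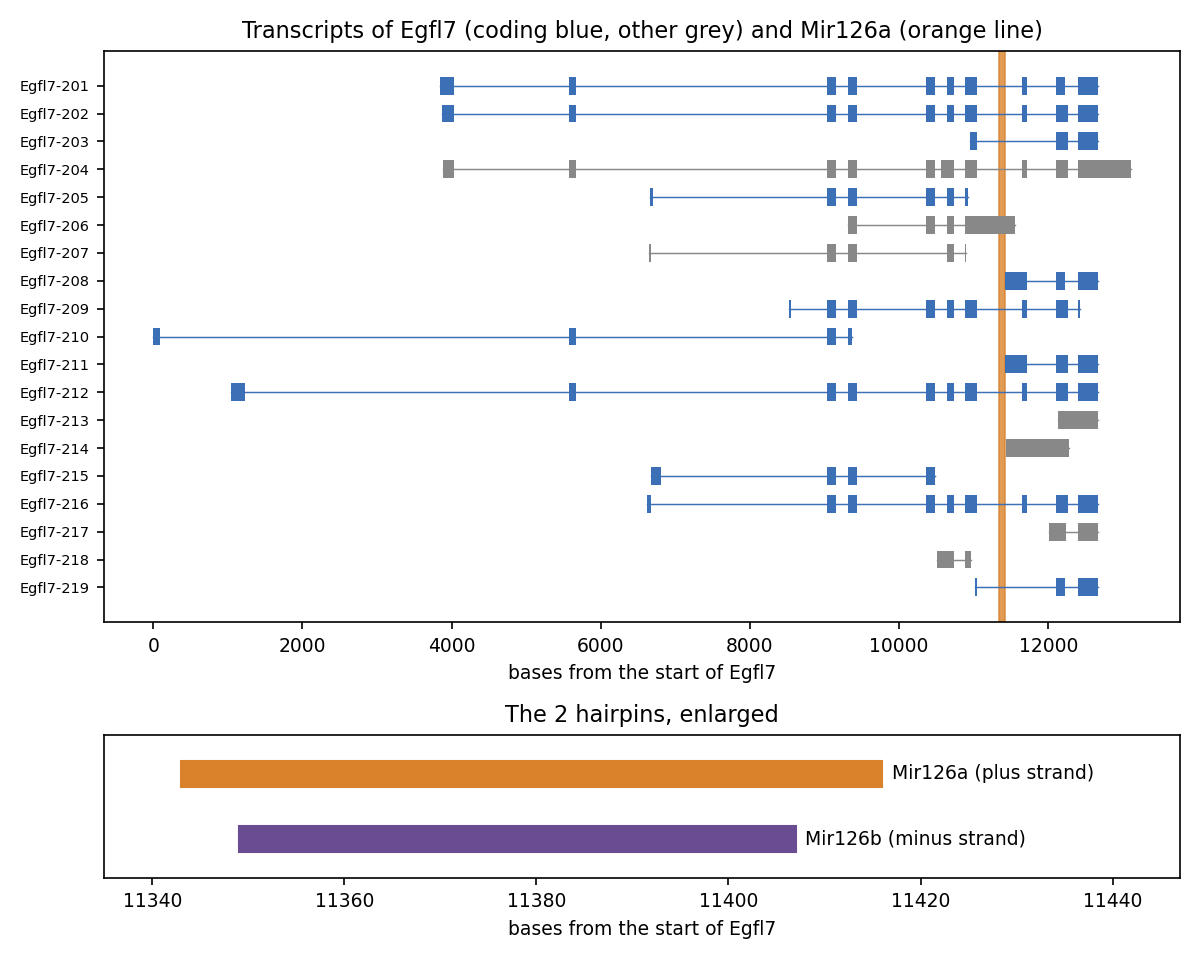
Exons of the 19 annotated Egfl7 transcripts (boxes, coding transcripts in blue and others in grey) by distance in bases from the start of the gene, with Mir126a as an orange line. The lower panel enlarges the hairpins: Mir126b, on the minus strand, lies inside the 73 bases of Mir126a, on the plus strand, and the line crosses an exon in 1 transcript alone, a retained intron.

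Mir221 (ENSMUSG00000065422.1) spans 95 bases at chrX:19146294-19146388 and Mir222 (ENSMUSG00000065471.1) 79 bases at chrX:19146893-19146971, both on the minus strand and 504 bases apart. Neither overlaps an annotated gene, and the nearest other one is the noncoding Gm14636, 10593 bases from Mir221 and 10010 from Mir222. The longest stretch common to both hairpins, of 9 bases, holds the shared seed. No member had over 12 bases in a row in common with another of the 2202 annotated hairpins on the same strand, and copies elsewhere in the genome were not searched. By the naming convention for hybrids the first strain is the mother's, so the X chromosome of such males is C57BL/6J. Chromosome 2 is present from both strains, and whether reads of a CAST/EiJ allele were lost at Mir126a was not tested.

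Replicate 1 held 3037063 and replicate 2 held 5284446 reads in miRNA genes, on the strand with more of them (the sense column). Those were 32.1% and 27.0% of all reads. Unmapped reads made up 19.4% and 34.3%, and reads mapped to several places 40.7% and 32.5%, and those outside miRNA genes 7.79% and 6.27%. Levels are given as reads per 1000000 of the miRNA gene reads (CPM), and 3 reads, the limit that a count of 0 allows, equal 0.988 and 0.568 CPM. Heart muscle miRNAs from myosin genes, Mir208a and Mir499 with Mir208b, summed to 1.08% and 1.48% of miRNA reads, and none of them was at 0. Smooth muscle miRNAs (Mir143 and Mir145a) summed to 4.57% and 4.06%.

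The 4 genes stood far apart in level, in the order Mir126a, Mir221, Mir222 and Mir126b in both libraries. Mir126a had 258891 reads in replicate 1 and 580354 in replicate 2, which is 85244 and 109823 CPM, a mean of 97533 ± 17380.1 (SD, n = 2). It made up 8.52% of the counted miRNA gene reads (95% Wilson interval 8.49 to 8.56) and then 11.0%. Mir221 had 4461 and 22996 reads, or 1469 and 4352 CPM, a mean of 2910.2 ± 2038 (SD, n = 2). For Mir221 these shares were 0.147% (0.143 to 0.151) and 0.435% (0.430 to 0.441). Mir222 had 266 and 2888 reads, or 87.6 and 547 CPM, a mean of 317 ± 325 (SD, n = 2), an SD as large as the mean. Mir126b had 1 and 8 reads, or 0.329 and 1.51 CPM, under the level of 3 reads in replicate 1 and above it in replicate 2. The values of these genes did not overlap between any of them, so the order exceeded the spread between the libraries. Intervals cover counting error alone, since no molecular identifiers are recorded. In bulk tissue, fewer cells of a type and less RNA per cell cannot be told apart.

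**Figure D2:**
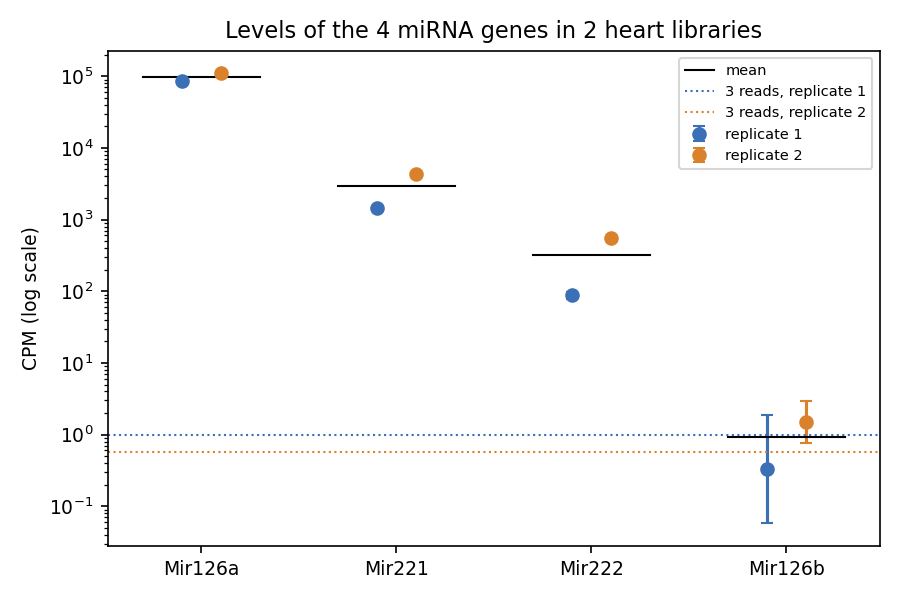
Level in CPM (log axis) of each gene in replicate 1 (blue) and replicate 2 (orange), with 95% Wilson intervals, the mean as a black line and the level of 3 reads per library as dotted lines. Mir126a lies at 85244 and 109823 CPM, while the points of Mir222 lie further apart, at 87.6 and 547 CPM, and those of Mir126b lie below the dotted line in replicate 1 and above it in replicate 2.

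Ranks count reads mapped to 1 place alone. Reads mapped to several places, 40.7% of all reads in replicate 1 and 32.5% in replicate 2, were left out. Of the miR-1 and miR-133 gene copies, named after their values were seen, Mir1a-2 had 84 and 141 reads and Mir1a-1 21 and 20. Mir133a-1 had 8 and 31 reads, and Mir133a-2 14 and 45. Whether these, or any genes whose reads map to several places, would rank higher was not tested, so the ranks hold for the counted reads alone. Among all 2202 miRNA genes, Mir126a ranked 2 in each library. The genes beside it did not overlap its values in these 2 libraries. Mir378a, above it, had 140259 and 120457 CPM, and Mirlet7b, below it, 73571 and 63250.1 CPM. Whether these differences exceed the variation of single genes between the libraries, a coefficient of variation of 40.5%, was not tested. Mir221 ranked 53 in replicate 1 and 31 in replicate 2. Next to it by mean level stood Mir451a, a red blood cell miRNA (4900.5 and 948 CPM), and Mir214, a miRNA of stromal cells (1935 and 3808 CPM). Both overlapped the range of Mir221. Within the libraries, both lay above Mir221 in replicate 1 (1469 CPM) and below it in replicate 2 (4352 CPM), Mir451a by far the more. Mir222 ranked 140 and 84, beside Mir874 (286 and 364 CPM) and Mir700 (332 and 284 CPM), whose values both lay inside the range of Mir222. Mir126b ranked 503 and 389, among genes with a handful of reads.

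Read by strand, nearly all of the signal at the miR-126 locus was that of the host strand. In the column for either strand Mir126a had 37 reads in replicate 1 and 38 in replicate 2, and Mir126b had 0 in both. In the opposite-strand column the picture turned over: Mir126b showed 258854 and 580316 reads there, and Mir126a 1 and 8. These are the same reads seen from the other gene, because the minus strand of one is the sense strand of the other. The sense reads of Mir126a exceeded the opposite reads of Mir126b by 37 and 38, exactly the reads that the column for either strand left to Mir126a. Reads that touched both genes stood in the ambiguous line of that column, of which they were 33.0% in replicate 1 (258855 of 784246) and 42.5% in replicate 2 (580324 of 1365026). One other locus, that of Mir378a, lost more reads there, 425976 and 636547. Mir221 and Mir222, with no gene opposite them, had the same counts in the column for either strand as in the sense column, and 0 opposite reads in both libraries.

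**Figure D3:**
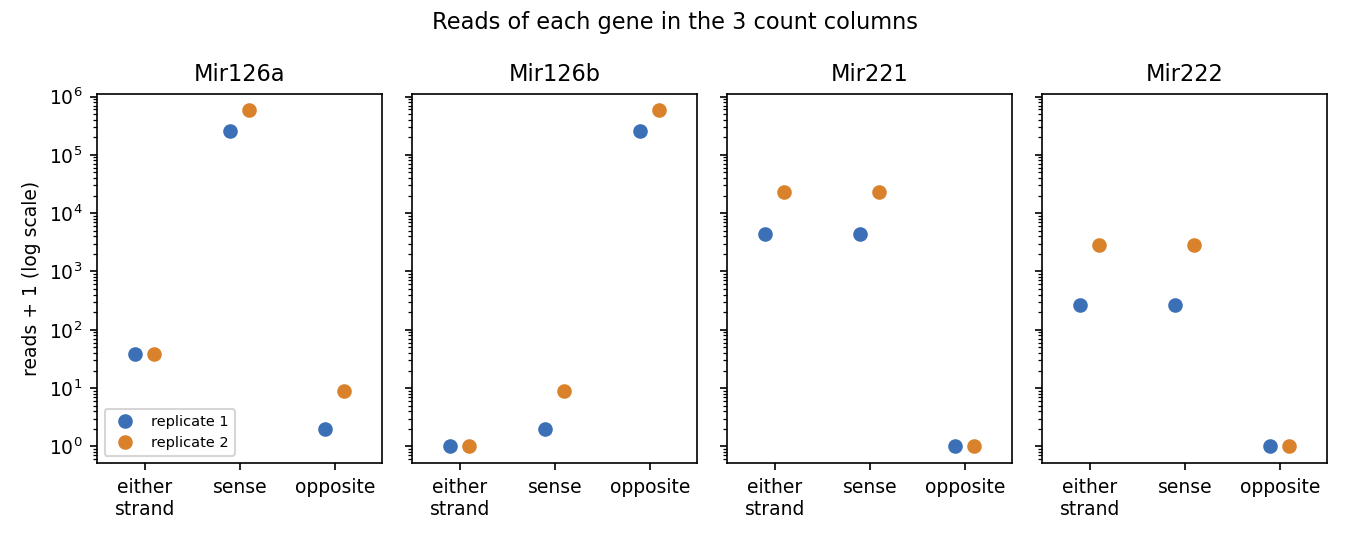
Reads plus 1 (log axis) of each gene in the column for either strand, the sense column and the opposite-strand column, in replicate 1 (blue) and replicate 2 (orange). The sense points of Mir126a reappear as the opposite points of Mir126b at 258854 and 580316 reads, and the column for either strand keeps 37 and 38 reads of Mir126a, while Mir221 and Mir222 are equal in the first 2 columns.

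The 1 and 8 minus-strand reads of Mir126b were 3.86 (95% Wilson interval 0.682 to 21.9) and 13.8 (6.99 to 27.2) per 1000000 reads of the locus. Over the 2138 miRNA genes with no miRNA gene opposite them, opposite-strand reads made up 39.5 (32.1 to 48.6) and 48.2 (41.8 to 55.6) per 1000000. Of those reads, 46 of 89 and 101 of 189 lay at Mir122, a gene chosen after its values were seen. Mir122 had 91 and 67 sense reads, fewer than its opposite reads in replicate 2. Without it the values were 19.1 (14.2 to 25.7) and 22.5 (18.2 to 27.7), whose intervals overlap those of Mir126b. The share of Mir126b at its locus therefore did not exceed these pooled shares of opposite-strand reads. The intervals take reads as independent, though many opposite reads lay at 1 gene. Whether Mir126b is made at a low level was not tested. Sense reads of Mir126a outnumbered those of Mir126b 72544-fold in replicate 2 (exact binomial interval 36817 to 168033). In replicate 1, with 1 read, the ratio was 258891 (46465 to 10225687). Arms cannot be separated, since the counts are per hairpin and miR-126a-3p reaches just 3 bases beyond Mir126b.

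Within each library the ratios between the genes do not depend on how the libraries are scaled, and 4 such ratios were computed. Mir126a exceeded Mir221 58.0-fold in replicate 1 (exact binomial interval 56.3 to 59.8) and 25.2-fold in replicate 2 (24.9 to 25.6), for an average log2 ratio of 5.26 ± 0.85 (SD, n = 2). Mir126a exceeded Mir222 973-fold (863 to 1102) and 201-fold (194 to 209), a mean log2 ratio of 8.79 ± 1.61 (SD, n = 2). Each mean was several times its SD, and Mir126a was far the higher in both libraries. With 2 libraries an exact sign-flip test cannot go below p = 0.5, so none was made.

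The ratio of the neighbours Mir221 and Mir222 differed between the libraries by more than counting error. Mir221 exceeded Mir222 16.8-fold in replicate 1 (14.8 to 19.1) and 7.96-fold in replicate 2 (7.66 to 8.28), a mean log2 ratio of 3.53 ± 0.76 (SD, n = 2). Of the reads of both genes together, Mir222 held 266 of 4727, or 5.63% (95% Wilson interval 5.01 to 6.32), and 2888 of 25884, or 11.2% (10.8 to 11.5). The intervals of the 2 libraries do not overlap, but they cover counting error alone. Beyond that, single genes varied between these libraries with a coefficient of variation of 40.5%, and whether the 2.11-fold shift exceeds such variation was not tested. The larger share of Mir222 stood in the library where both genes were higher.

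**Figure D4:**
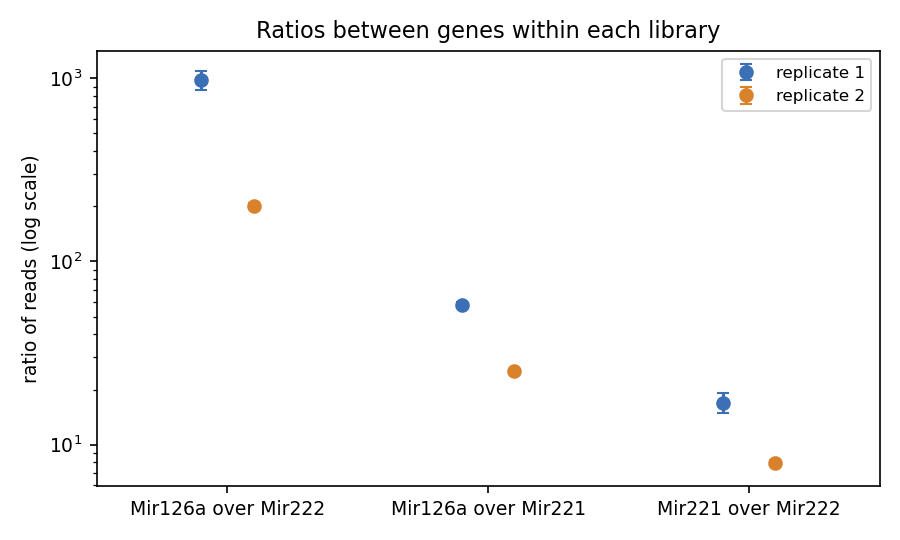
Ratio of reads (log axis) for 3 pairs of genes within replicate 1 (blue) and replicate 2 (orange), with exact 95% binomial intervals, most of them smaller than the points. Each ratio was lower in replicate 2, by 4.84 times for Mir126a over Mir222, 2.30 times for Mir126a over Mir221 and 2.11 times for Mir221 over Mir222.

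Between the libraries, the 3 genes with enough reads for a test were all higher in replicate 2, Mir222 most and Mir126a least. Mir126a was 1.29-fold higher (interval 1.28 to 1.29), a log2 ratio of 0.37. Mir221 was 2.96-fold higher (2.87 to 3.06), a log2 ratio of 1.57, and Mir222 6.24-fold higher (5.50 to 7.10), a log2 ratio of 2.64. By the exact two-sided binomial test of the 2 libraries with Benjamini-Hochberg adjustment over 424 genes, all of them differed beyond counting error. The adjusted p was 1.56e-290 for Mir222 and below the smallest number the software holds for the other two. Mir126b, with 9 reads in all under the minimum of 10, was not tested, and its ratio of 4.60 had an interval of 0.616 to 204.

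That test called 52.8% of the genes, 30.9% as higher in replicate 2 and 21.9% as higher in replicate 1, so a call by it is common in this pair. Among the 134 genes whose reads summed to 1000 or more, it called 87.3%, and 50.0% as higher in replicate 2. By size, 4 of those 134 genes had a higher log2 ratio than Mir222, 6 a higher one than Mir221 and 33 a higher one than Mir126a. Their median log2 ratio was 0.08. With the common dispersion of these libraries in the exact test of edgeR, which called 2.83% of genes, none of the 3 passed. The adjusted p-values were 1.00 for Mir126a, 0.782 for Mir221 and 0.113 for Mir222, and of the unadjusted ones that of Mir222, 0.00346, was the 1 under 0.05. Scaling to all reads of each library lowered every log2 ratio by 0.25, and left Mir126a at 0.12, Mir221 at 1.32 and Mir222 at 2.39, each still called by the binomial test. Under that scaling 35.8% of the called genes were higher in replicate 2, against 58.5% with miRNA gene reads as the total.

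**Figure D5:**
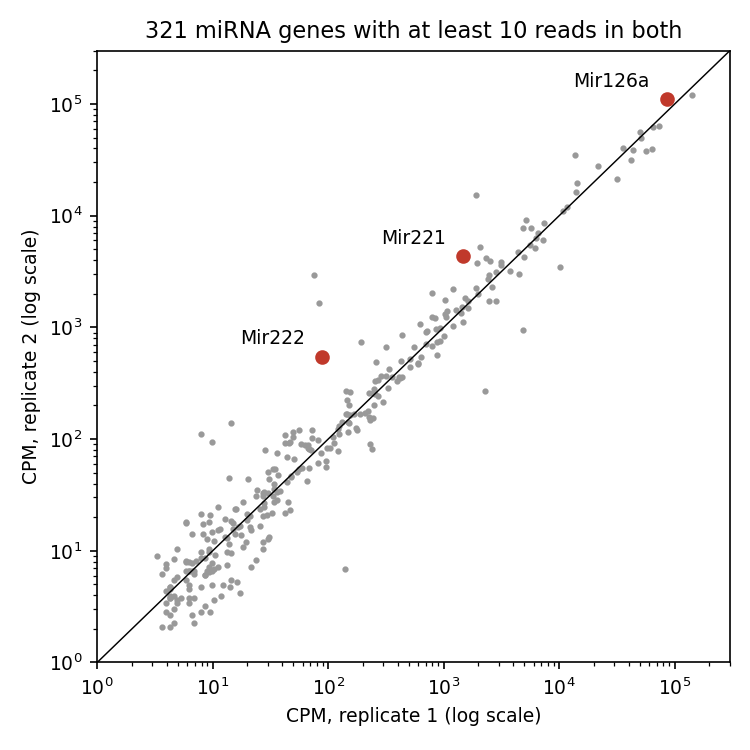
CPM in replicate 1 (horizontal) and replicate 2 (vertical), both on log axes, for the 321 miRNA genes that reached 10 reads in each library; the line marks equal levels. Mir126a lies close to the line, and Mir221 and Mir222 (red) lie above it, with log2 ratios of 1.57 and 2.64.

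Over 2 libraries, the genes with at least 1000 reads whose log2 ratio was nearest to that of Mir126a were Mir425, Mir149 and Mir101b, within 0.002 to 0.010. Nearest to Mir221 stood Mir455, Mir34a, a miRNA induced by p53, and Mir22, a miRNA abundant in heart muscle, with log2 ratios of 1.38, 1.36 and 1.35. Nearest to Mir222 were Mir21a, known to rise with tissue injury, Mir107 and Mir455, at distances of 0.358, 0.680 and 1.261. Mir222 therefore had few of the genes with at least 1000 reads near it, and its own neighbour Mir221 lay 1.07 below it. A likeness over 2 libraries is 1 number per gene and describes this pair alone.

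Other miRNAs known from vessels did not share 1 direction. Of a list of 28, all were matched (3 of them, Mir18, Mir92-1 and Mir146, through older symbols) and 25 had enough reads. In replicate 2, 14 of these were higher and 8 lower, while 3 passed no threshold. The binomial test called 52.8% of all genes and 87.3% of those with 1000 or more reads, so these counts say nothing particular to vessel miRNAs. Their median log2 ratio was 0.17, against 0.07 over all 424 genes tested. The most abundant were Mir23a, Mir23b, Mir125a and Mir100, with log2 ratios of -0.69, -0.57, 0.21 and 0.44. The highest ratio was that of Mir31 (5.28), the 1 member past the exact test of edgeR (adjusted p = 3.93e-05). The lowest among members with at least 100 reads was that of Mir130a (-0.72). The summed level of the list was 16.3% of the miRNA reads in replicate 1 and 13.1% in replicate 2. Mir23a and Mir23b carried this difference: the other 26 members summed to 4.30% and 5.42%, higher in replicate 2, in a split made after the values were seen.

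Markers of other cell types differed between the libraries as well, and their part in the ratios of Mir221 and Mir222 was not tested. Calls in this paragraph are by the binomial test, which called 52.8% of all genes. Of all these markers, the exact test of edgeR called Mir205, Mir200c, Mir21a and Mir144 alone. The 5 fibroblast markers summed to 3851 CPM in replicate 1 and 19013 CPM in replicate 2. Mir21a, with 1899 and 15189.9 CPM, carried most of this difference. The other 4 summed to 1952 and 3823 CPM, nearly all of it from Mir214 (1935 and 3808 CPM). Mir21a and Mir214 were higher in replicate 2, Mir199b was lower, Mir199a-2 was not called, and Mir199a-1, at 0 in replicate 1, had too few reads. Reads mapped to several places were left out, and whether this lowered the counts of the Mir199 genes was not tested. The 7 epithelial markers summed to 298 and 3874 CPM, with 4 higher and 2 lower in replicate 2, 1 not called and none at 0. Among them Mir205 had 2.30 and 1963 CPM, and Mir200c 82.6 and 1652 CPM, while the other 5 summed to 213 and 259 CPM. The erythroid pair Mir451a and Mir144 summed to 7165 and 1219 CPM, lower in replicate 2. The 4 leukocyte markers, led by Mir155 and Mir150, kept nearer levels, with sums of 6557 and 7238 CPM, 3 of them higher and 1 lower. Heart muscle markers summed to 10793 and 14757 CPM, with Mir208a and Mir208b higher and Mir499 not called. Smooth muscle markers summed to 45692 and 40641 CPM, with Mir143 lower and Mir145a not called. The endothelial list held Mir126a alone.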

How the data were processed

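The authors deposited 1 table of raw read counts per library, with 3 count columns (2 for either strand, 3 and 4 for each strand) for 2202 miRNA genes. The build mm10 is given per the labels and the annotation, GENCODE M21, per the text deposited beside the tables. Which aligner and counter were used is not given in the sources used here. The labels put the size range at under 30. All 2202 IDs were matched to M21. The 4 summary lines, whose shares are given above, stayed out of totals and tests. Column 3, with more reads in both libraries, was used as sense. Members, lists and tests were chosen with earlier results of these data known. The rule for named genes took the members, the genes next to them in level, the 3 nearest in log2 ratio with at least 1000 reads, the leading genes of the vascular list with its highest and lowest ratio, and the 2 most abundant markers of each cell type.

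Genes whose 2 counts summed to at least 10 reads were tested by an exact binomial test (scipy 1.17.1) with a threshold of 0.05. It was checked on simulated counts with counting error alone, so the check does not cover the further variation between these libraries. A 0 was replaced by 0.5 reads in log2 ratios. edgeR 4.0.16 gave TMM scaling, the common dispersion (coefficient of variation 40.5%, genes with at least 10 reads in each library) and an exact test. DESeq2 1.42.0 gave size factors. Folding used ViennaRNA 2.7.2. With 1 group, no model of group means was fitted.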

Additional observations from a re-analysis of the deposited data

Results flagged for a closer look

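The opposite-strand column, which the levels do not use, held over 3 reads, the limit set by a count of 0, at the miR-126 locus. Mir126b had 258854 such reads in replicate 1 and 580316 in replicate 2, which are sense reads of Mir126a. Mir126a had 8 in replicate 2, which are the sense reads of Mir126b.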

How the results depend on the processing

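Levels, ratios and calls were recomputed in the column for either strand, with TMM, DESeq2 size factors or all reads as the total, with other minimum read numbers, by the exact test of edgeR and without each replicate. Under these, 17 log2 ratios between libraries kept their direction and stayed past the threshold. Part of this agreement was fixed beforehand, since other minimum read numbers cannot change a log2 ratio. In the column for either strand, the counts of Mir221 and Mir222 equal their sense counts as well. Of the untested values, 10 levels and 1 ratio within libraries moved by less than 1 SD, and 6 counts of genes called (184 to 228) stayed within 1.5 times 224. That ratio, Mir221 over Mir222, rests on the same counts in both columns and could not move. TMM and DESeq2 size factors shifted each log2 ratio between libraries by just -0.01 and -0.02, so levels under them could hardly move. The SD of 2 libraries is a wide bound for levels. Within it, the column for either strand raised Mir221 from 2910.2 to 3924 CPM and Mir222 from 317 to 427 CPM. With 2 libraries, leaving 1 out gives the value of the other (for Mir222, 547 or 87.6 CPM in place of 317), which tests nothing. The column for either strand, which leaves out reads touching both miR-126 genes, put Mir126a at 13.1 CPM and Mir126b at 0 CPM. It turned the log2 ratio of Mir126a between libraries to -0.76 (adjusted p = 0.0438, exact binomial test), and those of Mir126a over Mir221 and over Mir222 within libraries to -8.08 and -4.55. It gave no ratio of Mir126a to Mir126b, since Mir126b had 0 reads there. The exact test of edgeR called 12 genes in place of 224. It no longer called Mir126a (log2 ratio 0.35), Mir221 (1.55) or Mir222 (2.63), with adjusted p-values of 1.00, 0.782 and 0.113. That test takes its dispersion from the same pair of libraries. No paired analysis was possible because there is 1 group. Depth limits Mir126b, with 1 and 8 reads.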
